A study of Mus musculus with 16 samples.

Results

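Ca2+/calmodulin-dependent protein kinase II (CaMKII) and its inhibitor proteins were followed here in odor-stimulated olfactory mucosa, as 6 genes: the inhibitors Camk2n1 and Camk2n2 and the kinase subunits Camk2a, Camk2b, Camk2d and Camk2g. They were the rows of the array table whose annotation carried one of these symbols. All 6 had a row, with 1 probe set each, among 22206 tested probe sets that covered 19505 named genes. Camk2n1 was chosen by its odor minus vehicle difference on these arrays and by the change of its sort difference, so its values in the odor comparisons are given as a description without a test. The other 5 were taken as its known partners and were tested in every comparison.

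All samples came from S100a5-tauGFP mice, in which regulatory sequence of S100a5, a calcium-binding protein gene whose expression in olfactory neurons follows their activity, drives a green fluorescent reporter. Whether 1 or both copies of the gene carried the reporter is not stated in the labels. The 24 mice, of both sexes and 7 to 12 weeks old, were kept singly for 40 h in chambers of clean air flowing at 3.1 L/min. After 26 h the odor groups received 2-hexanone and the vehicle groups filtered air, in 10 s pulses every 20 min. Cells of 3 mice were pooled, and each pool was sorted into a GFP+ and a GFP- fraction, which gave 4 pools per treatment and 4 groups of 4 arrays: vehicle GFP-, vehicle GFP+, odor GFP- and odor GFP+. Values are deposited log2 signals, measured on Clariom S mouse arrays from 50 to 100 ng of RNA per sample. The scale reached 19.81, so a transformation that the sources used here do not give acts on every difference and fold below. A signal at or under the highest of 23 background control bins of its own array (the floor, 6.16 to 7.33) was treated as not above background.

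CaMKII is a large complex built from subunits of its different genes. Calcium bound to calmodulin opens the subunits, which then phosphorylate each other and stay active after calcium has fallen. CAMK2N1 and CAMK2N2 are small proteins that bind the active kinase and block its substrate site. In olfactory sensory neurons an odorant receptor activates adenylyl cyclase 3 (Adcy3), cyclic AMP opens a channel that lets calcium in, and CaMKII phosphorylates adenylyl cyclase 3 and lowers its activity.

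The sort and the arrays were checked first. S100a5 was 2.82-fold higher in GFP+ than in GFP- cells over both treatments (log2 difference 1.50 ± 0.18 SE, n = 8 pools, limma adjusted p = 2.25e-06). Omp, which marks mature sensory neurons of the nose, lay between 19.19 and 19.50 on all 16 arrays, near the top of the scale, and was not called in any comparison. Of the 10 mature neuron markers 3 were higher in GFP+ cells over both treatments and 0 lower: Ano2 by 0.66, Adcy3 by 0.45 and Slc17a6 by 0.39 (limma adjusted p = 0.000544, 0.00258 and 0.0249), and Ano2 and Slc17a6 were named after their values were seen. In the mean of both treatments 11 of 11 measured immune markers, 10 of 10 of microvillous and tuft-like cells, 9 of 10 of sustentacular cells, 7 of 10 of immature neurons, 6 of 8 of progenitors and 2 of 2 of erythroid cells were lower in GFP+ cells. Among those counted, Il25, Chat, Notch2 and Neurog1 were under the floor on all 16 arrays. Avil and C1qa were each above it on only 1, and all of these were named after their values were seen. Of the remaining lists, 4 of 9 gland and respiratory and 3 of 6 vomeronasal and non-canonical neuron markers were lower and 0 higher. Endothelial and stromal markers had 1 higher and 2 lower of 8, ensheathing glia 1 and 1 of 6, and olfactory bulb neurons 2 and 1 of 9. Aqp5 of the gland list and Sox10 of the glia list, both called lower, were likewise under the floor on all 16 arrays. Over all probe sets 13.4% were called higher and 13% lower in this comparison. The mean log2 level of the immune list was 11.60 to 13.84 on vehicle GFP- and 12.76 to 13.33 on odor GFP- arrays, against 4.73 to 5.70 and 5.10 to 5.58 on the GFP+ arrays. On the GFP+ arrays 8 of the 11 immune markers in vehicle and 7 in odor were under the floor throughout. That of the sustentacular list was 9.35 to 9.92 and 9.61 to 9.95 in GFP- against 7.02 to 7.50 and 7.49 to 7.78 in GFP+ cells, again in vehicle and odor. The immature neuron list stood at 10.69 to 10.96 and 10.47 to 10.87 in GFP- against 8.17 to 8.74 and 8.28 to 8.66 in GFP+ cells. In each of the 4 groups 8 of 9 markers of olfactory bulb neurons, a cell type rich in CaMKII, were under the floor on every array. The other, Eomes, also named after its value was seen, was above the floor on all 16 arrays and was higher in GFP+ cells by 0.45 ± 0.12 SE over both treatments (limma adjusted p = 0.0107). The part of these other cells in the differences between fractions was not tested, and in such bulk samples fewer cells of a type and less RNA per cell cannot be told apart. No marker on any of the 12 lists was called in the odor comparisons or in the change of the sort difference. Over all probe sets the shares called were 0.00901% in GFP+ cells, 0% in GFP- cells and 0.00901% for the change. Median odor differences ran from -0.32 for the erythroid to 0.32 for the sustentacular list in GFP+ cells. In GFP- cells they ran from -0.38 to 0.26 for the same lists. Both replicate 1 pools stood apart: for 487 of 22206 probe sets (2.19%) their 4 arrays did not overlap the other 12.

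Camk2n1, the inhibitor gene chosen by its odor response, was higher on the odor arrays of both fractions. In vehicle GFP+ cells it stood at 5.76, 5.86, 5.22 and 6.95 in replicates 1 to 4, and only the last of these was above its floor. In odor GFP+ cells it stood at 7.90, 8.71, 8.81 and 9.61, all above the floor. Every odor array was thus higher than every vehicle array, with a gap of 0.95 between the groups, as for 1.01% of all probe sets in this direction. The group means were 5.95 ± 0.73 and 8.76 ± 0.70 (SD, n = 4), a difference of 2.81 ± 0.35 SE, or 7.01-fold. With the 3 dim vehicle arrays raised to their floors, the difference was 2.19, or 4.57-fold.

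In GFP- cells, which hold the neurons with less reporter and the other cells of the mucosa, Camk2n1 was above the floor on all 8 arrays. In vehicle, however, it exceeded the floor by only 0.03, 0.37, 0.02 and 0.66 in replicates 1 to 4. It stood at 6.73, 7.10, 6.58 and 6.88 in vehicle and at 7.47, 7.84, 8.35 and 8.06 in odor. Here too the groups did not overlap, with a gap of 0.37, as for 0.941% of all probe sets in this direction. The means were 6.82 ± 0.22 and 7.93 ± 0.37 (SD, n = 4), a difference of 1.10 ± 0.35 SE, or 2.15-fold.

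**Figure D1:**
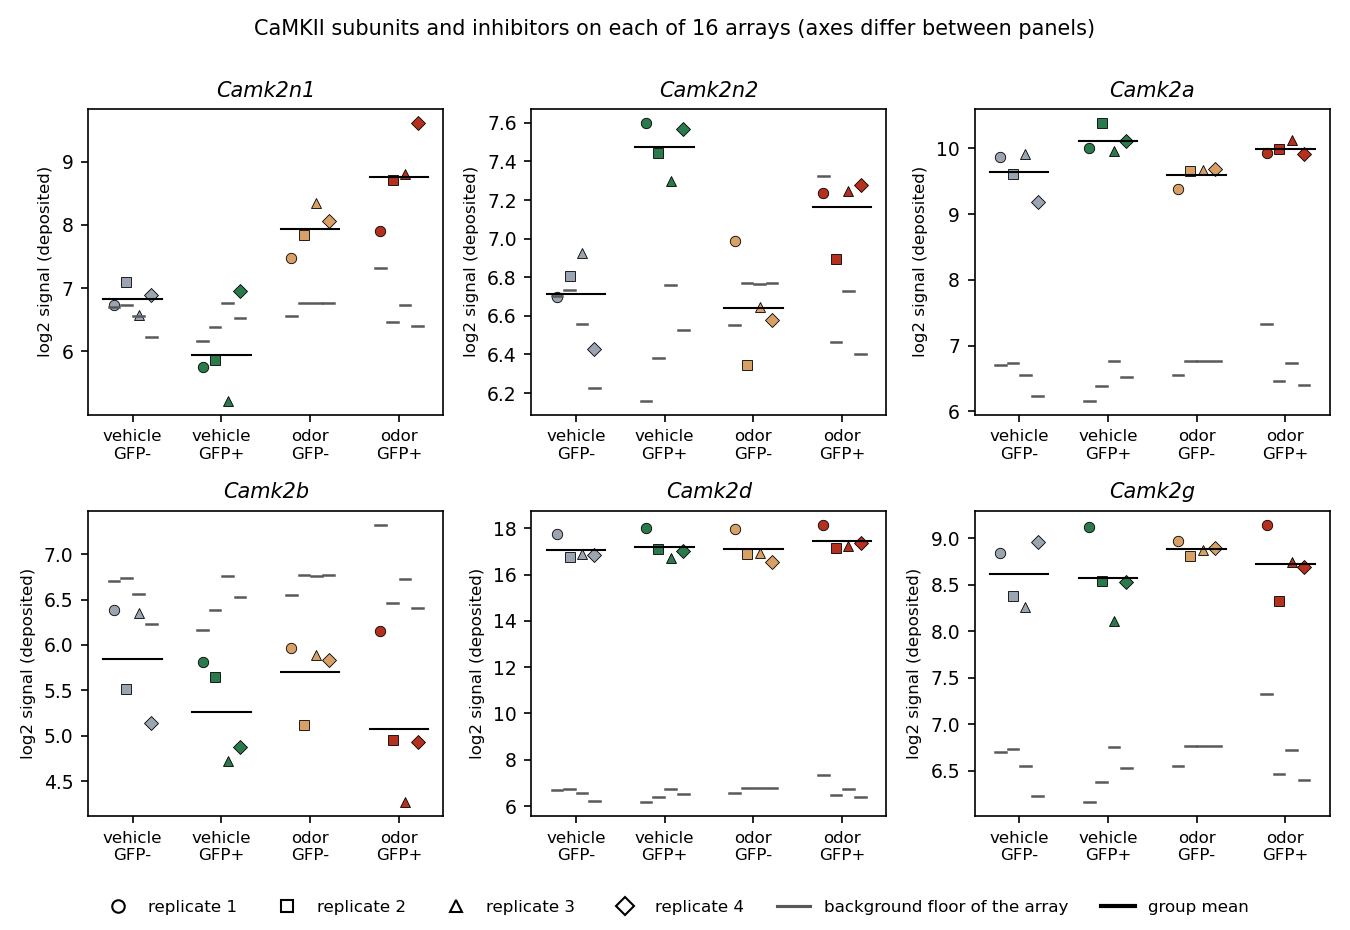
Deposited log2 signal of the 6 genes (vertical axes, which differ between panels) on the 16 arrays by group, with marker shape for the replicate number, black bars for group means and grey ticks for the background floor of each array. Camk2n1 is higher on every odor array than on the vehicle arrays of the same fraction, Camk2b lies under the floor throughout, and Camk2d is highest in replicate 1.

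The change of the Camk2n1 sort difference with treatment, one of the values that chose the gene, is described pool by pool. Within the vehicle pools, GFP+ minus GFP- was -0.97, -1.25, -1.36 and 0.07, but in the first 3 of these pools the GFP+ array was under its floor. In vehicle replicate 3 that floor, 6.76, was above the GFP- value of 6.58, so this pool gave no direction. Within the odor pools it was 0.43, 0.86, 0.46 and 1.56, with every array above its floor. The fitted sort difference was -0.88 ± 0.35 SE in vehicle and 0.83 ± 0.35 in odor, and the change between them was 1.71 ± 0.49. The fractions overlapped within each treatment. Raising the dim arrays to the floor left -0.26 in vehicle and a change of 1.09. Averaged over treatments, a comparison independent of those that chose the gene, the sort difference was -0.03 ± 0.24 SE (limma adjusted p = 0.950, 95% interval -0.54 to 0.49), and its sign followed the scaling (0.33 with arrays centred on their medians and 0.17 with quantile normalization).

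**Figure D2:**
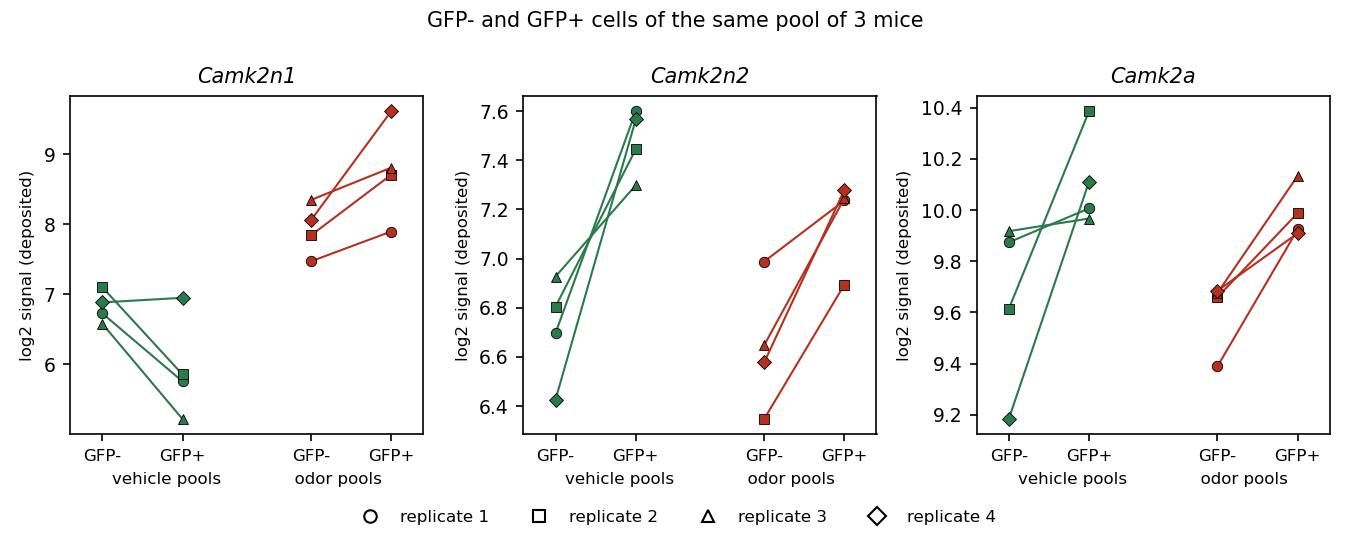
Log2 signal of Camk2n1, Camk2n2 and Camk2a in the GFP- and GFP+ cells of each pool, joined by a line, for 4 vehicle and 4 odor pools (axes differ between panels). The Camk2n1 lines fall in 3 vehicle pools, where the GFP+ value was under the background floor, and rise in all 4 odor pools, while those of Camk2n2 and Camk2a rise in all 8 pools. In odor replicate 1 the Camk2n2 GFP+ value was under a floor that lay above the GFP- value.

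Camk2n2, the other inhibitor gene, had the higher mean in GFP+ cells in both treatments, and the difference passed in vehicle and over both treatments. In vehicle it stood at 6.70, 6.80, 6.93 and 6.43 in GFP- and at 7.60, 7.44, 7.30 and 7.57 in GFP+ cells. Each GFP+ array was higher than each GFP- array, and 3 of 4 GFP- arrays were above the floor. The means were 6.71 ± 0.21 and 7.48 ± 0.14 (SD, n = 4), and the difference of 0.76 ± 0.18 SE, or 1.70-fold, passed (limma adjusted p = 0.00494). In that comparison 15.7% of all probe sets were called, 5.83% higher and 9.86% lower, and for 9.01% each GFP+ array was likewise above each GFP- array. Without vehicle replicate 4 the difference was 0.64 and the call was lost (adjusted p = 0.0551 by limma).

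In odor, Camk2n2 stood at 6.99, 6.35, 6.65 and 6.58 in GFP- cells, where 1 of 4 arrays was above the floor. In GFP+ cells it stood at 7.24, 6.89, 7.25 and 7.28, with 3 of 4 above the floor. The groups overlapped, through GFP- replicate 1 and GFP+ replicate 2. The difference of 0.52 ± 0.18 SE did not pass in the unblocked fit (limma adjusted p = 0.0549), and passed with the pool as a random block, which uses that both fractions come from the same mice (adjusted p = 0.0297), but not with the pool as a fixed block, which uses the same pairing (adjusted p = 0.0602). It was 0.36 with dim values raised to the floor. In odor 14.9% of all probe sets were called, 5.29% higher and 9.56% lower.

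Pool by pool, the deposited Camk2n2 value was higher in GFP+ cells in 8 of 8 pools, by 0.90, 0.64, 0.37 and 1.14 in vehicle and by 0.25, 0.55, 0.60 and 0.70 in odor. In odor replicate 1, however, the GFP+ value of 7.24 was under its floor. That floor, 7.33, was above the GFP- value of 6.99, so this pool gave no direction. The mean over treatments was 0.64 ± 0.12 SE, or 1.56-fold (limma adjusted p = 0.000683, 95% interval 0.38 to 0.91), against a median of 0.15 over all probe sets, of which 26.4% were called, 13.4% higher and 13% lower. Centring arrays on their medians moved that median to 0.51 and the Camk2n2 difference to 1.00. With dim values raised to the floor, the Camk2n2 difference over both treatments was 0.56. The immune, sustentacular and immature neuron markers given above were lower, and the called mature neuron markers higher, in the same GFP+ samples, and their part in the Camk2n2 difference was not tested.

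Odor minus vehicle did not pass for Camk2n2 in either fraction. In GFP+ cells its mean was 7.48 ± 0.14 in vehicle and 7.16 ± 0.18 in odor (SD, n = 4). Every odor array lay below every vehicle array, by a gap of 0.02, as for 1% of all probe sets. The odor replicate 1 array was under its floor of 7.33, which was above the lowest vehicle array, 7.30, so the lack of overlap rests partly on background. The difference of -0.31 ± 0.18 SE did not pass (limma adjusted p = 1.00, 95% interval -0.69 to 0.06). In GFP- cells it was -0.07 ± 0.18 SE, with an interval from -0.45 to 0.30. There 3 of 4 odor arrays were under the floor, and the difference turned to 0.11 with dim values raised to it.

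RefSeq promoter sequence (GRCm38.p6) was used for 3 of the 6 genes, Camk2n2, Camk2b and Camk2d. The 250 bases before the start of Camk2n2, the inhibitor gene called between the fractions, and of Camk2d, a subunit gene that was not, are shown so that both can be set side by side. Capitals mark a core site of the cyclic AMP response element (TGACG, or CGTCA on the other strand), the element bound by the calcium- and cyclic AMP-regulated factor CREB. The Camk2n2 stretch is chr16:20621279-20621528 on the minus strand and the Camk2d stretch is chr3:126596701-126596950 on the plus strand.
Camk2n2: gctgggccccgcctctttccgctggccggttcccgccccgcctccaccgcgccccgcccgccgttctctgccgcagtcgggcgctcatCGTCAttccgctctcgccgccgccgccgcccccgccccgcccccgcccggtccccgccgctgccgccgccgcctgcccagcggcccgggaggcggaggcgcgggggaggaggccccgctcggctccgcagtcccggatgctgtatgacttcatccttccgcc
Camk2d: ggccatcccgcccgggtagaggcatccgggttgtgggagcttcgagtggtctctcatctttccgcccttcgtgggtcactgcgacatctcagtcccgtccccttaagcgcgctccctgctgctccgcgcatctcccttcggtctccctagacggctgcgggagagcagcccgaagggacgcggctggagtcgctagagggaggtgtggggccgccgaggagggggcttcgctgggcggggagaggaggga
Camk2n2 held 1 core site, 162 bases before the start, and no full site (TGACGTCA). Camk2d and Camk2b held neither. A core site lay in 17.8% of 32851 promoter windows of this length and a full site, which holds the core site on both strands, in 1.55%, with both strands searched. The bases G and C made up 80% of the Camk2n2 and 68.4% of the Camk2d stretch.

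Camk2a, the alpha subunit and a major form in forebrain neurons, was above the floor on all 16 arrays and was higher in GFP+ cells over both treatments. In vehicle it stood at 9.87, 9.61, 9.92 and 9.18 in GFP- and at 10.01, 10.39, 9.97 and 10.11 in GFP+ cells. In odor it stood at 9.39, 9.66, 9.68 and 9.68 in GFP- and at 9.92, 9.99, 10.13 and 9.91 in GFP+ cells. The fractions did not overlap in either treatment, as for 9.01% of all probe sets in vehicle and 9.4% in odor in this direction. Camk2a was higher in GFP+ cells in 8 of 8 pools, by between 0.05 and 0.93.

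Within each treatment the Camk2a difference did not pass, at 0.47 ± 0.18 SE in vehicle (limma adjusted p = 0.0902) and 0.39 ± 0.18 in odor (adjusted p = 0.178). Over both treatments it was 0.43 ± 0.13 SE, or 1.35-fold, and passed (limma adjusted p = 0.0181, 95% interval 0.16 to 0.70). The 8 GFP+ arrays lay between 9.91 and 10.39 and the 8 GFP- arrays between 9.18 and 9.92, so that they just overlapped, while 2.87% of all probe sets had 8 GFP+ arrays above all 8 GFP- arrays. The call was lost without vehicle replicate 2 (0.38, limma adjusted p = 0.0667) or vehicle replicate 4 (0.35, adjusted p = 0.0556). The part of the markers of other cells in the Camk2a difference was not tested. Odor minus vehicle was -0.13 ± 0.18 SE in GFP+ cells (95% interval -0.51 to 0.25) and -0.04 ± 0.18 in GFP- cells (-0.42 to 0.33), neither of which passed.

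Camk2d, the delta subunit, which is expressed in many tissues, gave bright signals on all 16 arrays and was not called in any comparison. Its means were 17.07 ± 0.47 in vehicle GFP-, 17.21 ± 0.57 in vehicle GFP+, 17.09 ± 0.61 in odor GFP- and 17.47 ± 0.47 in odor GFP+ cells (SD, n = 4). Its values were parted by the replicate number. The 4 replicate 1 arrays lay at 17.77, 18.03, 17.97 and 18.16 and the other 12 between 16.56 and 17.37, a mean difference of 1.03. The sort difference over both treatments was 0.26 ± 0.24 SE (limma adjusted p = 0.453, 95% interval -0.25 to 0.76). This SE, from the fit without a block, takes in the offset of replicate 1. Pool by pool the sort difference was 0.26, 0.32, -0.20 and 0.16 in vehicle and 0.18, 0.22, 0.30 and 0.81 in odor. Odor minus vehicle was 0.27 ± 0.34 SE in GFP+ cells (interval -0.45 to 0.98) and 0.02 ± 0.34 in GFP- cells (-0.69 to 0.73).

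Camk2g, the gamma subunit, was above the floor on all 16 arrays, between 8.11 and 9.15, and its 4 groups overlapped. Its means were 8.61 ± 0.35 in vehicle GFP-, 8.57 ± 0.41 in vehicle GFP+, 8.89 ± 0.06 in odor GFP- and 8.73 ± 0.34 in odor GFP+ cells (SD, n = 4). The spread in odor GFP- cells, from 8.81 to 8.97, was the narrowest of the 4 groups. The sort difference over both treatments was -0.10 ± 0.16 SE (limma adjusted p = 0.681, 95% interval -0.44 to 0.24), and its sign turned to 0.26 with arrays centred on their medians. Odor minus vehicle was 0.15 ± 0.23 in GFP+ and 0.28 ± 0.23 in GFP- cells, and neither passed.

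Camk2b, the beta subunit, which ties the kinase to actin in neurons, was not above background on any of the 16 arrays. Its values ran from 4.27 to 6.38, and no fold is given. Under the floor, the sort difference over both treatments was -0.61 ± 0.27 SE and did not pass (limma adjusted p = 0.103). Leaving out both replicate 1 pools gave -0.75 (adjusted p = 0.0464) and leaving out odor replicate 1 alone -0.74 (adjusted p = 0.0423), each a difference between values that were still all under the floor.

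**Figure D3:**
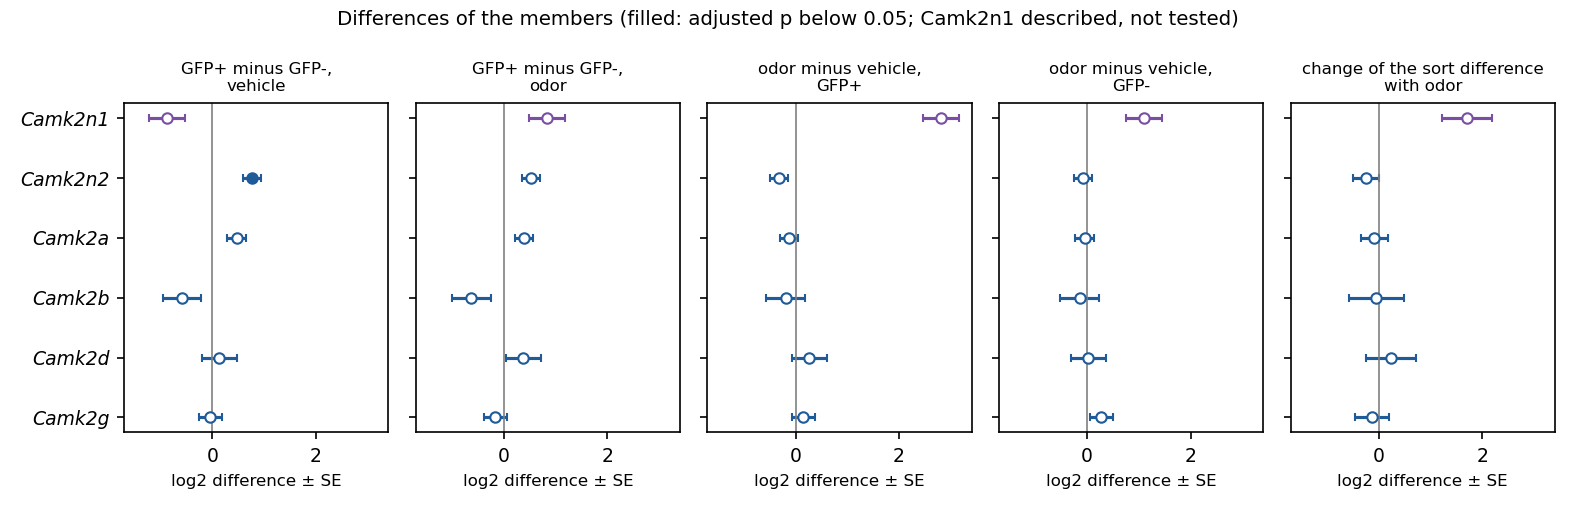
Log2 difference ± SE of the 6 genes (n = 4 arrays per group) in the sort comparisons, the odor comparisons and the change of the sort difference with odor. Filled points passed at adjusted p below 0.05 and Camk2n1, in purple, was not tested; its odor differences of 2.81 in GFP+ and 1.10 in GFP- cells stand to the right of those of the other 5 genes, which lie between -0.31 and 0.28.

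Set against odor, then, the 5 other genes stayed between -0.31 and 0.27 in GFP+ cells and between -0.14 and 0.28 in GFP- cells. None passed, at limma adjusted p = 1.00 for each. Over all 22206 probe sets limma called 0.00901% in GFP+ cells, a share from which nothing is read about Camk2n1, since this comparison chose it. It called 0 in GFP- cells, where 547 had an unadjusted p under 0.05. Of the change of the sort difference, 2 probe sets were called (0.00901%), the odorant receptor genes Olfr191 and Olfr1494. The change was -0.24 ± 0.25 SE for Camk2n2 and -0.08 ± 0.25 for Camk2a (limma adjusted p = 1.00 for both). Leaving out any 1 of the 4 odor pools, or vehicle replicate 3 or 4, left 0 calls for the change, and leaving out vehicle replicate 1 or 2 left 1.

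Genes around CaMKII were taken from 4 lists, of which 61 members were measured. In the mean of both treatments 9 of them were higher and 8 lower in GFP+ cells (13.4% and 13% of all probe sets), with a median difference of 0.14 against 0.15 over all probe sets. These counts followed the scaling, with 42 higher and 6 lower when arrays were centred on their medians and 12 and 7 with quantile normalization. In vehicle the counts were 6 and 6 (5.83% and 9.86% of all probe sets), and in odor 3 and 6 (5.29% and 9.56%). In odor minus vehicle of either fraction, and in the change of the sort difference, 0 of the 61 were called. The shares over all probe sets were 0.00901% in GFP+ cells, 0% in GFP- cells and 0.00901% for the change.

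Among kinase relatives, 2 of 12 were higher and 1 lower in GFP+ cells (13.4% and 13% of all probe sets), with a median of 0.16. Centred arrays gave 8 higher and 0 lower, and quantile normalization 2 and 0. Dapk1, a death-associated kinase of the calmodulin-dependent family, was 1.45-fold higher (0.54 ± 0.14 SE, limma adjusted p = 0.00798). The other called relatives, Camk4 (0.57) and Camk1d (-0.65), were under the floor on all 16 arrays, so no fold is given. The Camk1d call was lost with centring (adjusted p = 0.158 by limma) and with quantile normalization (0.112). Dapk3 and Camk1, the brightest that were not called, differed by -0.04 and 0.09.

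Calmodulin and proteins that bind it split both ways, with 2 of 14 higher and 3 lower (13.4% and 13% of all probe sets) and a median of 0.06. Centred arrays gave 8 higher and 2 lower, with a median of 0.42. Pcp4l1, a small protein related to the calmodulin-binding Pcp4, was 4.30-fold higher in GFP+ cells (2.10 ± 0.24 SE, limma adjusted p = 1.81e-06), at 14.63 against 12.66 in vehicle and 14.48 against 12.25 in odor. Gap43, a growth cone protein that binds calmodulin and that also stands on the immature neuron list, was 5.61-fold lower (-2.49 ± 0.18 SE, adjusted p = 4.44e-09 by limma). Marcks, a membrane protein that gives up its lipids when calmodulin binds, was 5.02-fold lower (-2.33 ± 0.19 SE). The calmodulin genes Calm2 and Calm3 differed by 0.11 and 0.02 and did not pass as deposited, but both passed with arrays centred on their medians. The remaining called genes, named after their values were seen, were the transcription factor gene Camta2 (0.52) and Nrgn (-0.54), which was under the floor on all arrays.

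Of 14 phosphatase genes 4 were called lower in GFP+ cells and 0 higher (13% and 13.4% of all probe sets), although the list median was 0.10. With arrays centred on their medians 9 were higher and 4 lower. Ppp3ca, a catalytic subunit of the calmodulin-activated phosphatase calcineurin, was 1.97-fold lower (-0.98 ± 0.13 SE, limma adjusted p = 6.51e-06). Ppp3r1, its regulatory subunit, was 1.71-fold lower (-0.78 ± 0.12 SE, adjusted p = 5.1e-05 by limma). Rcan2, a calcineurin regulator, differed by -3.02 ± 0.26, with 8 of 8 GFP+ arrays under the floor and 2 of 4 GFP- arrays above it in each treatment, so no fold is given. Ppp1cc, a catalytic subunit of protein phosphatase 1 named after its value was seen, fell by 0.67. The catalytic subunit genes Ppp3cb (0.18) and Ppp1cb (0.14) were not called as deposited. Immature neuron and immune markers were lower in the same samples, and their part was not tested.

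Of 21 substrates and anchoring partners of the kinase 5 were called higher in GFP+ cells and 0 lower (13.4% and 13% of all probe sets), with a median of 0.26. Centred arrays gave 17 higher and 0 lower. Syn2 and Syn1, synaptic vesicle proteins phosphorylated by CaMKII, were 2.33-fold (1.22 ± 0.16 SE) and 1.72-fold higher (0.78 ± 0.13 SE; limma adjusted p = 1.17e-05 and 0.000142). Adcy3, the cyclase that CaMKII phosphorylates in olfactory cilia and a marker of mature neurons, was 1.37-fold higher (0.45 ± 0.10 SE, limma adjusted p = 0.00258). Its means were 18.03 against 17.53 in vehicle and 17.96 against 17.55 in odor. Mef2a (0.00) and Cacnb2 (0.26) were not called, and the other called genes, named after their values were seen, were the postsynaptic scaffold gene Dlg4 (0.44) and Grin2b (0.39), the latter under the floor on all arrays.

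**Figure D4:**
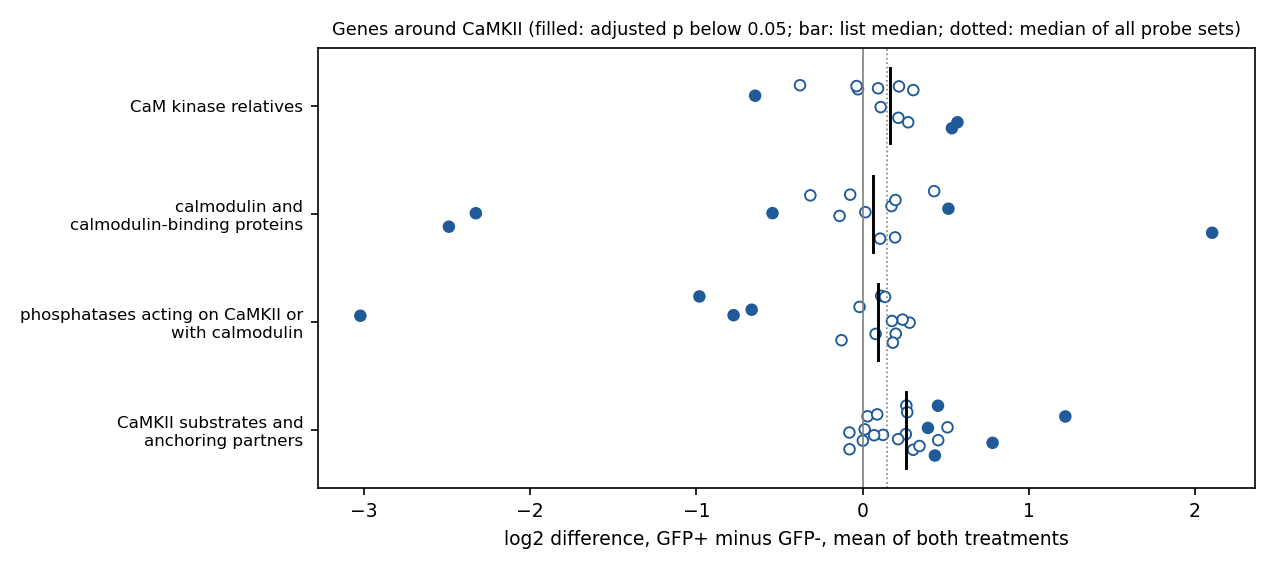
Log2 difference between GFP+ and GFP- cells, averaged over both treatments (horizontal axis), for the 61 measured genes of 4 lists around CaMKII, 1 point each with vertical scatter for legibility only. Filled points passed at adjusted p below 0.05, black bars are list medians and the dotted line is the median of all probe sets, 0.15; the called phosphatase genes lie to the left of 0 and the called substrates to the right.

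The genes whose pattern was most like that of Camk2n1 were searched among 9328 probe sets above the floor on all arrays of at least 1 group. Over the 16 arrays these were Pwp2 (Pearson r = 0.745), Pcdh10 (0.731), Rictor (0.716) and the odorant receptor genes Olfr1116 (0.703) and Olfr1247 (0.694). Pwp2 was above the floor on 3 vehicle GFP-, 2 vehicle GFP+, 4 odor GFP- and 3 odor GFP+ arrays. Over the 8 GFP- arrays the genes most alike were Eloa (0.933), Poglut2 (0.917), Mettl5 (0.914), Bpifb3 (0.914) and Ndufs4 (0.904), none of which was among the first 5 over all arrays. Poglut2 entered the search through vehicle GFP+ cells. In GFP- cells it was above the floor on 0 of 4 vehicle and 3 of 4 odor arrays, so its r there rests partly on background values. Bpifb3 stands on the list of gland and respiratory markers. In GFP- cells Bpifb3 lay between 9.69 and 10.17 in vehicle and between 10.85 and 11.50 in odor, a difference of 1.18. This was the largest of the 9 measured markers of its list, which ran down to -0.16 with a median of 0.21 and 0 called. The part of Bpifb3 in the Camk2n1 difference there was not tested. For the other CaMKII genes r over the 16 arrays ran from -0.267 for Camk2n2 to 0.225 for Camk2g, and S100a5 had 0.0841. Over the 8 GFP+ arrays r was -0.587 for Camk2n2, and over the 8 GFP- arrays it was 0.480 for Camk2g. These correlations describe arrays that share treatment, sort and pools, and carry no test. With Camk2n1 above the floor on only 1 of 4 vehicle GFP+ arrays, r over the 16 or the 8 GFP+ arrays rests partly on background values.

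Pcdh10, a protocadherin of the cell surface, was also the first of 8 GFP+ arrays (r = 0.985), a search added after the values were seen. Camk2n1 was above the floor on only 1 of the 4 vehicle GFP+ arrays, so this r rests partly on background values. Pcdh10 stood at 7.32, 7.39, 7.03 and 8.57 in vehicle GFP- and at 9.06, 9.12, 8.05 and 10.06 in vehicle GFP+ cells. In odor it stood at 9.09, 9.40, 8.79 and 10.99 in GFP- and at 11.21, 11.46, 11.38 and 12.86 in GFP+ cells. As for Camk2n1, the odor arrays lay above the vehicle arrays of each fraction, by mean differences of 2.65 in GFP+ and 1.99 in GFP- cells, and replicate 4 was the highest array in both GFP+ groups. These differences were not tested, since the gene was found by its likeness to Camk2n1. Unlike Camk2n1, Pcdh10 was higher in GFP+ than in GFP- cells in vehicle as well, with means of 9.07 ± 0.82 and 7.58 ± 0.68 (SD, n = 4).

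**Figure D5:**
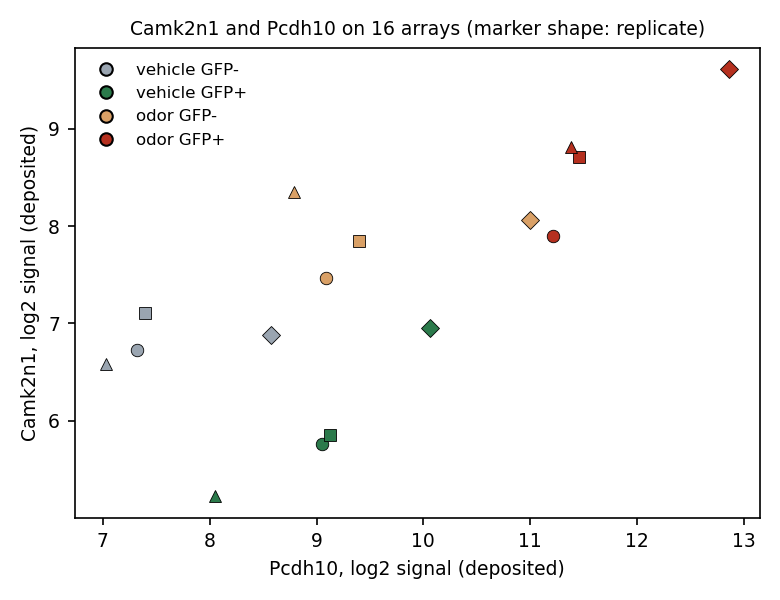
Log2 signal of Camk2n1 (vertical) against Pcdh10 (horizontal) on the 16 arrays, with colour for the group and shape for the replicate. Within each fraction the odor arrays lie above and to the right of the vehicle arrays, and the 8 GFP+ arrays (r = 0.985) rise close to a straight line. Only 1 of the 4 vehicle GFP+ arrays had Camk2n1 above its floor.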

How the data were processed

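Total RNA of 16 sorted samples was hybridised to Clariom S mouse arrays. The deposited table holds the authors' log2 signal of each probe set, written by Affymetrix Expression Console according to the submitters' processing notes. The version of that program, how probes were summarised and the build behind the annotation were not given in the sources used here. Of 28846 rows, 6640 control rows were left out, which left 22206 to test, 19572 of them with a gene symbol from the platform annotation. The most similar pair of arrays had r = 0.992, and no pair was identical.

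Sample titles gave the group and the replicate number. One limma fit (version 3.58.1, R 4.3.3; lmFit, then eBayes) held a mean for each of the 4 groups and no block, with 12 residual degrees of freedom. Calls are two-sided Benjamini-Hochberg adjusted p below 0.05 over all 22206 probe sets. Replicates are pools of 3 mice, and precision is limited by the count of arrays. The fit was tested on simulated data. Of changes of 1 log2 unit it recovered 53% in GFP+ minus GFP- of vehicle and 51% in odor minus vehicle of GFP- cells. Of changes of 2 log2 units it recovered 93% and 97%. The genes and lists were chosen with earlier results of these data known. The text names the 6 genes, S100a5, Omp, per list up to 3 called genes of largest difference and 2 of highest level not called (over the mean of treatments), and the 5 genes most like Camk2n1 over 16 and over 8 GFP- arrays. Olfr191 and Olfr1494 are named outside that rule. Some list entries were not analysed here. Protein sequences and the promoters of Camk2n1, Camk2a and Camk2g were not used here.

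The labels tie the GFP+ and the GFP- sample of each pool to the same mice. As a check of this pairing, the deviations of both from their group means were correlated over probe sets. In odor replicates 1 to 4 the correlation was 0.425, 0.0749, 0.161 and 0.109. In vehicle replicates it was 0.352, 0.0136, 0.0516 and 0.0837. Alternatives were a block for the pool (random, or as a fixed term), one for the replicate number, another variance prior, quantile normalization, median centring, the lowest 40% of probe sets left out, array weights, only the arrays compared, each pool or both replicate 1 pools left out, and values raised to the floor. Plots used Python 3.11.15 and matplotlib 3.10.9.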

Additional observations from a re-analysis of the deposited data

Results flagged for a closer look

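In 4 of the 24 groups of 4 arrays (6 genes in 4 groups), 1 array lay far from the other 3 by Dixon's criterion; chance flags about 1 in 20 groups. Camk2n2 in odor GFP+ cells was lowest in replicate 2, at 6.89 against 7.24 for the nearest array. Camk2a in odor GFP- cells was lowest in replicate 1, at 9.39 against 9.66. Camk2b in odor GFP- cells was lowest in replicate 2, at 5.12 against 5.84, with all 4 arrays under the floor. Camk2d in vehicle GFP- cells was highest in replicate 1, at 17.77 against 16.89, and its replicate 1 arrays were the highest in the other 3 groups as well.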

How the results depend on the processing

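Over the alternatives run, the Camk2n1 odor difference was 2.19 to 3.14 in GFP+ and 0.97 to 1.26 in GFP- cells; the lowest GFP+ value came from raising dim arrays to the floor, which also gave -0.26 for its vehicle sort difference and 1.09 for the change. Its sort difference over both treatments changed sign with array weights (0.058), centring (0.33), quantile normalization (0.17), the floor (0.28) and both replicate 1 pools left out (0.057), and ran from -0.18 to 0.055 with single pools left out. The Camk2n2 difference over both treatments passed under every alternative with a test (adjusted p up to 0.00490). Its odor sort difference passed with the pool as a random block (0.52, adjusted p = 0.0297) or the replicate number as a block (0.52, 0.0464), array weights (0.52, 0.0405), 40% of probe sets left out (0.52, 0.0296), quantile normalization (0.79, 0.00373) and centring (0.88, 0.00131), but not with the pool as a fixed block (0.52, 0.0602). The vehicle sort difference ran from 0.64 to 0.89 with single pools left out, and the GFP- odor difference from -0.19 to 0.024 (0.11 with the floor). Camk2a passed within each treatment with centring (0.83 in vehicle and 0.74 in odor), and single pools left out gave 0.35 to 0.50 over both treatments, -0.22 to 0.068 for the change and -0.20 to 0.045 for odor in GFP- cells (0.10 without both replicate 1 pools). For Camk2b they gave -0.74 to -0.43 over both treatments, -0.39 to 0.29 for the change, -0.55 to 0.082 (odor in GFP+) and -0.38 to 0.050 (odor in GFP-), and -0.75 over both treatments without both replicate 1 pools. Camk2d passed over both treatments with centring (0.61); odor in GFP- cells gave -0.036 without both replicate 1 pools and -0.27 to 0.26 with single pools left out. Camk2g turned positive with centring (0.26 over both treatments, 0.19 in odor, 0.33 in vehicle) and, in vehicle, with array weights (0.060) and quantile normalization (0.024); single pools left out gave -0.14 to 0.098 in vehicle and -0.0029 to 0.33 for odor in GFP+ cells.

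The block changed no other call of the 6 genes. By replicate number, deviations correlated at 0.419, 0.0996, 0.214 and 0.0492 in GFP+ and 0.354, 0.0841, 0.0310 and 0.214 in GFP- cells. These were similar in size to the correlations within pools and highest in replicate 1. The labels do not say whether the numbers pair the treatments, and a block for the number was fitted only as an alternative. Centring raised called probe sets to 16577 over both treatments, 10736 in vehicle and 10258 in odor, and called list genes to 48, 31 and 30. Of the calls over both treatments 50.8% were higher as deposited, 87.1% with centring and 60.9% with quantile normalization; in vehicle these shares were 37.2%, 83.7% and 49.0%, and in odor 35.6%, 83.2% and 48.0%. Calls for the change fell from 2 to 0 with the pool as a fixed block or without both replicate 1 pools, and to between 0 and 1 with single pools left out. Calls for odor in GFP+ cells numbered 1 with only the arrays compared and 5 with the replicate number as a block; in GFP- cells there was 1 with array weights, the 40% filter, quantile normalization, the replicate number as a block or the trended prior. The causes were not tested.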
